A study of Homo sapiens with 4 samples.

Results

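The genes described here are 40 genes of cytosolic chaperones, steroid receptor cochaperones and the heat shock factors that control them, chosen by name, of 26364 genes in the deposited count table. All 40 were in the table and all 40 passed the filter on low counts. They were measured by RNA sequencing in Ishikawa cells, a human endometrioid adenocarcinoma line, whose ESR1, the gene of estrogen receptor alpha, carries Y537S, a mutation of its ligand-binding domain, to study how the mutant receptor acts on gene expression. Every library came from mutant cells, and no library of cells with the unmutated receptor was used here. The cells were 2 mutant clones, each a single line, kept for at least 5 days in phenol red-free medium with charcoal-stripped serum. One group of 2 libraries received 0.1% DMSO, the vehicle, for 8 h, and the other group of 2 libraries received 10 nM estradiol (E2) for 8 h. The table names its columns by treatment and by a tag, A4 or B212, that the labels do not link to clone 1 or 2, so each library goes here by its treatment and its tag.

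Steroid receptors reach their hormone-binding state through a relay of chaperones. HSP70 and its J-domain partners first hold the newly made receptor, STIP1 (HOP) bridges HSP70 to HSP90, and HSP90 then holds the ligand-binding domain together with PTGES3 (p23) and a tetratricopeptide cochaperone such as FKBP4, FKBP5, PPID or PPP5C. Unliganded estrogen receptor alpha is a known HSP90 client, and STUB1 (CHIP), a ubiquitin ligase that docks on HSP70 and HSP90, can direct it to the proteasome. HSF1 is the main activator of heat shock genes, and it binds alternating GAA and TTC units in their promoters. Most members act in the cytosol or nucleus, but HSPA9, HSPD1 and HSPE1 work in mitochondria and HSPA13 is associated with microsomes.

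The libraries held 71575816 to 85222856 counts. All 8 endometrial epithelial markers examined had at least 10 counts in every library, with a summed level of 2155 to 3091 CPM, the usual scaling of counts to library size. Of 7 stromal fibroblast markers, 4 reached 10 counts in every library, with a summed level of 39.2 to 130 CPM. Of 6 immune and 4 endothelial markers, 2 and 2 reached 10 counts in every library, with summed levels of at most 1.22 and 5.22 CPM. CD3E and PECAM1 were at 0. These sums are on library totals, and all other CPM values are on TMM-scaled library sizes. ESR1 was read in all 4 libraries, at 110 (A4) and 107 (B212) CPM with DMSO and 97.0 and 86.5 CPM with E2, which does not show the mutation itself.

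The 40 genes took 2.22% (DMSO) and 2.45% (E2) of all counts in A4 and 1.80% and 1.95% in B212. The HSP90 pair made up 0.722% (DMSO) and 0.724% (E2) of all counts in A4 and 0.556% and 0.579% in B212, and the HSP70 and HSP110 family 0.467% and 0.608% in A4 and 0.369% and 0.437% in B212. The 11 cochaperones held 0.335% and 0.353% in A4 and 0.291% and 0.303% in B212. All 3 shares were higher with E2 in each tag, and all 3 were lower in B212 than in A4 at the same treatment. Per kilobase of transcript, which allows levels of different genes to be compared, HSPA8, the constitutive HSP70, had the highest mean level of the 40 at 1317 CPM per kilobase, and HSP90AB1, the constitutive HSP90, followed at 1256. HSP90AA1, the inducible HSP90, had 888, PTGES3 601 and HSPD1, the mitochondrial HSP60, 356. The order of the leading pair differed between treatments. HSPA8 was below HSP90AB1 in both DMSO libraries (1255 against 1466 in A4 and 979 against 1063 in B212) and above it in both E2 libraries (1834 against 1443 and 1202 against 1050). This is a description of 4 libraries with no test. The 8 subunits of the cytosolic chaperonin TRiC, which folds actin and tubulin and is built from 1 copy of each subunit per ring, lay between 171 (CCT5) and 290 (CCT3). Of the J-domain proteins DNAJA1 had 185 and DNAJB1 107, against 15.7 for DNAJB4, and of the receptor cochaperones STIP1 had 160, AHSA1 138 and FKBP4 128, against 12.0 for FKBP5 and 11.1 for STUB1. HSPH1 had 13.5, so HSPA8 exceeded it 77.1 and 95.5 times in A4 and 118 and 119 times in B212. At the low end stood CRYAB (4.81) and HSPB8 (0.215), both small heat shock proteins.

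**Figure D1:**
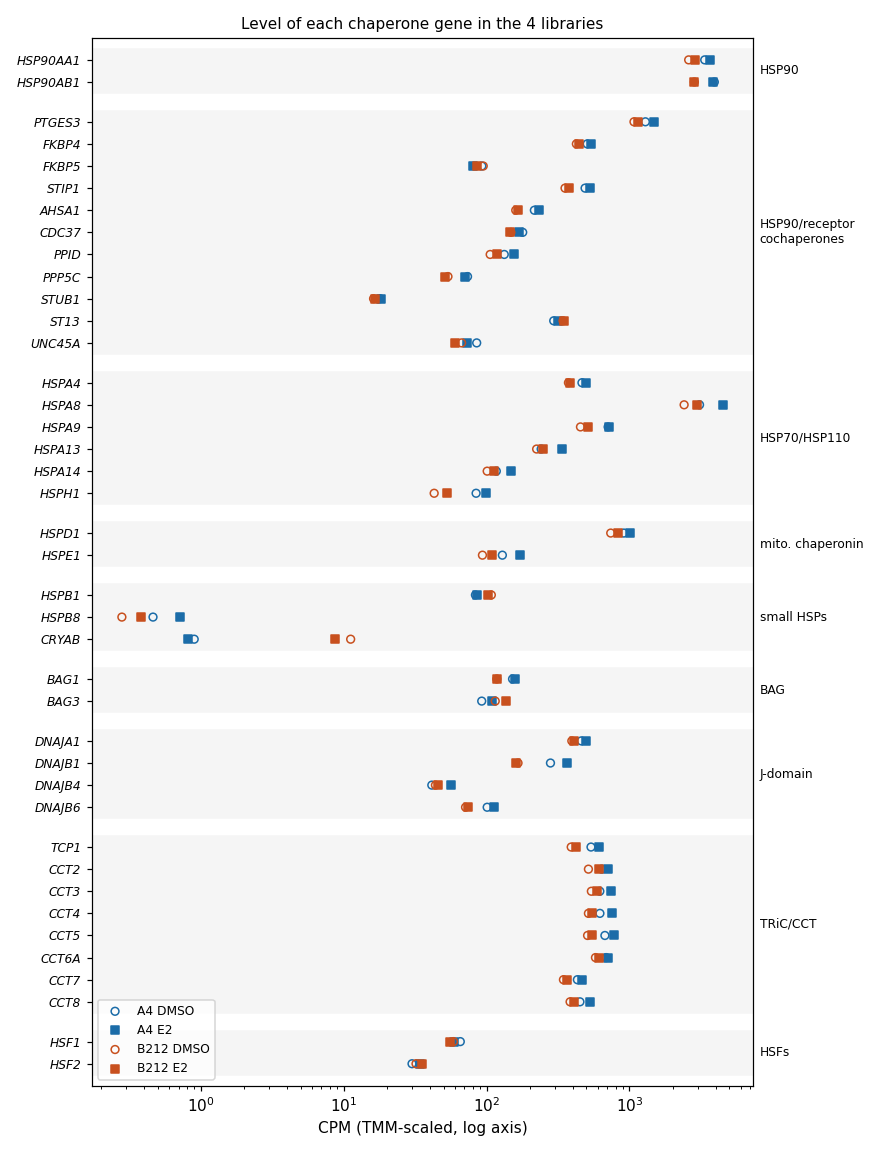
Level of the 40 chaperone genes in each library, in CPM scaled by TMM on a log axis, with blue for A4, orange for B212, open circles for DMSO and filled squares for E2. HSPA8, HSP90AA1 and HSP90AB1 lie between 2411 and 4516 CPM in every library, CRYAB is near 1 CPM in A4 and near 10 CPM in B212, and in most rows the orange symbols lie to the left of the blue ones.

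With E2, 6 of the 40 genes rose and none fell when the tag was a block in the model, that is, when E2 was compared with DMSO within each tag. Of the 6, 4 belong to the HSP70 and HSP110 family (HSPA8, HSPA13, HSPA14 and HSPH1), 1 is the mitochondrial cochaperonin HSPE1 and 1 is the HSP70 cochaperone BAG3. No gene of HSP90, of the 11 HSP90 and receptor cochaperones, of the 8 chaperonin subunits or of the 4 J-domain proteins passed. The changes were small, between 0.25 and 0.42 on the log2 scale. Called means a Benjamini-Hochberg adjusted p under 0.05 over all 15599 genes tested, by edgeR's quasi-likelihood test, here and below.

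The planned fit had no block, so its spread held the difference between the tags, and it called 0 of the 40 genes and 0% of all genes. At an unadjusted p under 0.05 it had 0 of the 40 genes and 150 genes in all (0.962%), and DESeq2 with no block called 1 gene, not a member. With the block, 9.56% of all genes were called. Of the members 15.0% were called higher against 6.13% of all genes, and 0 were called lower against 3.44% of all genes. Here and below, shares over all genes were not matched to the members in level. With library size as the only scaling the split over all genes was 911 higher (5.84%) and 775 lower (4.97%) in place of 956 and 536, and the same number of members, 6 higher and 0 lower, was called. Among the markers, 2 of 8 epithelial genes (KRT18 and PAX8) and COL1A1, which holds most of the stromal counts, were also called lower with E2 in this fit, as was 1 endothelial marker, VWF (-0.49 ± 0.15, edgeR adjusted p = 0.0441), and the stromal list summed to 130 (DMSO) and 92.0 (E2) CPM in A4 and 47.4 and 39.2 CPM in B212. Their part in the chaperone result was not tested. With the block each gene has 1 residual degree of freedom, and the test leans on the spread shared across genes.

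HSPA8, which folds new proteins and strips clathrin coats, had 3090 CPM (DMSO) and 4516 CPM (E2) in A4 and 2411 and 2960 CPM in B212. E2 was above DMSO within each tag, and the groups overlapped because the B212 E2 library lay below the A4 DMSO library. Its log2 fold change was 0.42 ± 0.082 (SE) with the block (edgeR adjusted p = 0.00436) and 0.44 ± 0.26 with no block (edgeR adjusted p = 0.9999). HSPA8 was the only member called in all 7 fits with the block. In bulk RNA, a change in the level per cell and a change in the share of cells that express a gene cannot be told apart. Of the 32-base words of the HSPA8 transcript, 39.5% also occur in 12 other genes, among them the pseudogene HSPA8P1, as do 31.2% to 45.2% of those of HSP90AA1, HSP90AB1, ST13, HSPE1 and HSPD1 in other genes, and the counting rule for such reads is not given in the sources used here.

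HSPA13, an HSP70 family member lacking the substrate-binding domain, rose from 241 to 338 CPM in A4 and from 224 to 247 CPM in B212. Both E2 libraries lay above both DMSO libraries, and the log2 fold change with the block was 0.31 ± 0.080 (edgeR adjusted p = 0.0179). HSPA14, which is part of the ribosome-associated complex, had 117 and 149 CPM in A4 and 101 and 112 CPM in B212, a log2 fold change of 0.25 ± 0.072 (edgeR adjusted p = 0.0343). Its groups overlapped. HSPH1, the HSP110 that releases nucleotide from HSP70, had 84.5 and 99.7 CPM in A4 and 43.0 and 52.5 CPM in B212. Its rise of 0.26 ± 0.071 (edgeR adjusted p = 0.0260) was of like size in the tags (0.24 and 0.29), while its level differed more between the tags than between the treatments.

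BAG3, which links HSP70 to small heat shock proteins and selective autophagy, had 92.5 and 110 CPM in A4 and 115 and 136 CPM in B212. The log2 ratio was 0.25 in each tag, and the fold change with the block was 0.25 ± 0.068 (edgeR adjusted p = 0.0270). HSPE1, the lid of the mitochondrial chaperonin, had 129 and 171 CPM in A4 and 93.6 and 110 CPM in B212, a log2 fold change of 0.32 ± 0.071 (edgeR adjusted p = 0.00900). HSPD1, the barrel of that chaperonin and the head-to-head neighbour of HSPE1, had 912 and 1012 CPM in A4 and 739 and 837 CPM in B212, and its 0.17 ± 0.073 was not called (edgeR adjusted p = 0.157). The level of HSPE1 is uncertain. Its exons overlap those of the readthrough gene HSPE1-MOB4 on the same strand, which was listed at 0 in every library, and the MOB4 gene itself had 2 to 9 counts.

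The other members of the HSP70 family were not called. HSPA4, an HSP110 relative, had 0.068 ± 0.071 and the mitochondrial HSPA9 had 0.10 ± 0.074 on the log2 scale, with edgeR adjusted p-values of 0.593 and 0.450. All 6 genes of the family had an E2 log2 ratio above 0 in both tags, from 0.0097 to 0.55 in A4 and from 0.032 to 0.30 in B212.

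2 limits bear on these calls. After each library was corrected for a smooth trend with GC content and transcript length, 4 of the 6 genes were still called (HSPA8, HSPA14, HSPH1 and BAG3), while HSPA13 (0.19, edgeR adjusted p = 0.0972) and HSPE1 (0.16, edgeR adjusted p = 0.108) were not, against 2.96% of all genes called higher. With DESeq2 size factors in edgeR 2 members were called (HSPA8 and HSPE1), and with DESeq2 itself 3 (these and HSPA13), against 2.92% and 2.41% of all genes called higher, while limma-voom called all 6 against 4.85%. DESeq2 gave an adjusted p for 8038 genes, of which 4.68% were called higher, and for 37 of the members.

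**Figure D2:**
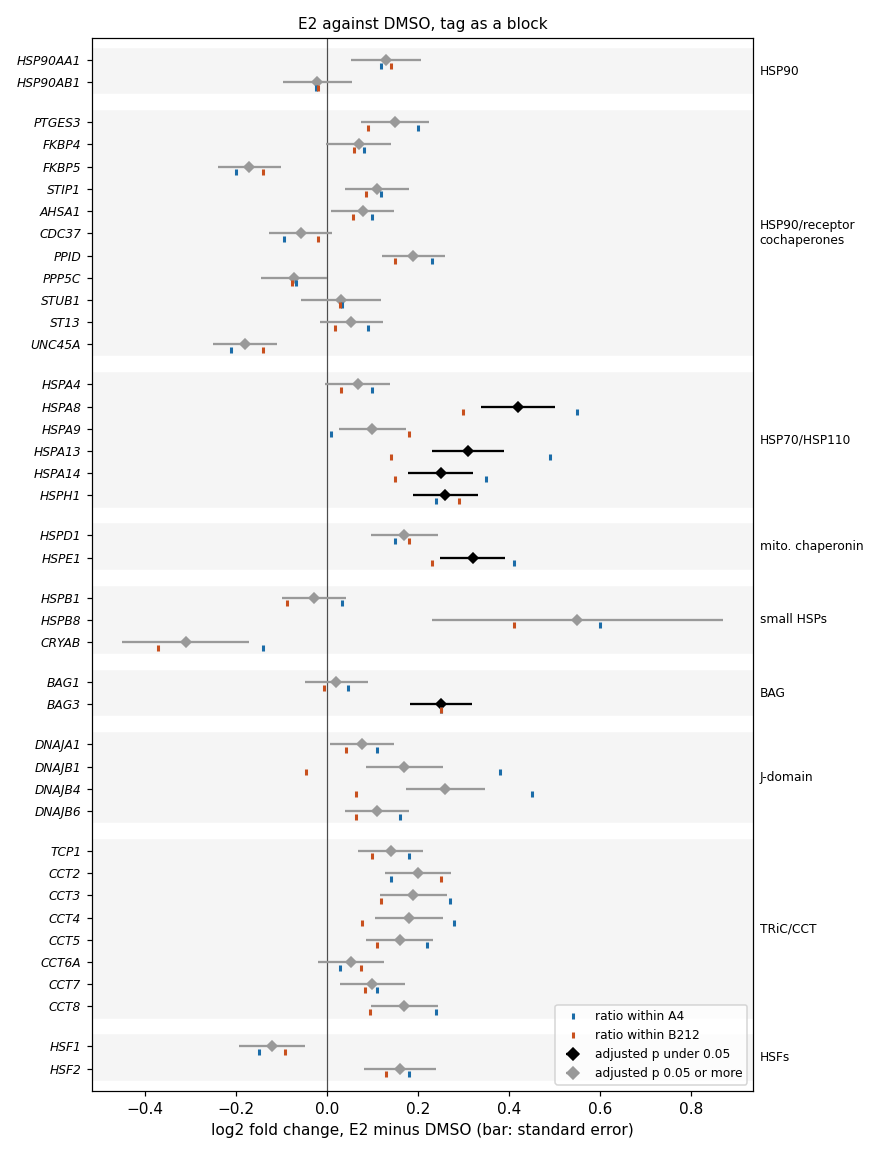
E2 log2 fold change of each gene with the tag as a block (diamonds, bars are the standard error, black where called), with the log2 ratio within A4 (blue ticks) and within B212 (orange ticks). The 6 called genes lie between 0.25 and 0.42, and the 8 chaperonin subunits all lie above 0 without being called (with the length and GC trend removed CCT6A lies at -0.013).

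The promoters of the genes called with E2 are shown beside those of both HSP90 genes, which were not called, since heat shock genes are known for HSF1 sites close to the start. The sequences are from RefSeq (GRCh38.p14), each the 250 bases before a gene start, read 5′ to 3′ on the gene's strand, and capitals mark heat shock elements of 3 units. The HSPA8 window lies at chr11:123062137-123062386 (minus strand), that of HSPH1 at chr13:31162389-31162638 (minus strand), that of HSPE1 at chr2:197500129-197500378 (plus strand) and that of BAG3 at chr10:119651130-119651379 (plus strand). The HSPA13 window lies at chr21:14383147-14383396 (minus strand), that of HSP90AA1 at chr14:102087045-102087294 (minus strand) and that of HSP90AB1 at chr6:44247693-44247942 (plus strand).
HSPA8: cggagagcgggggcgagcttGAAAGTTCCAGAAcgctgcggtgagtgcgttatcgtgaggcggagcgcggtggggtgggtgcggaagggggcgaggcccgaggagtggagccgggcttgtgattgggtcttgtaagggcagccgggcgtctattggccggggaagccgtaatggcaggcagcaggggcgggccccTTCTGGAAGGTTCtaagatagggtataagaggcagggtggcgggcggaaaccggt
HSPH1: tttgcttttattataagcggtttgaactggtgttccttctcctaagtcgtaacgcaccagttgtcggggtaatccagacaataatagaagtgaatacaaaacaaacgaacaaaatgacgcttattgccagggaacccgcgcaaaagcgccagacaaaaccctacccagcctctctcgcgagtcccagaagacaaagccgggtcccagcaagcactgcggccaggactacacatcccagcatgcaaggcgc
HSPE1: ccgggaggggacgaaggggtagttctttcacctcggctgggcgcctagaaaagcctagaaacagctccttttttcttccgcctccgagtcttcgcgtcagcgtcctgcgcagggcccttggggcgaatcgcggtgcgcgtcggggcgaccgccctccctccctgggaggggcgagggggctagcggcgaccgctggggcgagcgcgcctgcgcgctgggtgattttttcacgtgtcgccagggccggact
BAG3: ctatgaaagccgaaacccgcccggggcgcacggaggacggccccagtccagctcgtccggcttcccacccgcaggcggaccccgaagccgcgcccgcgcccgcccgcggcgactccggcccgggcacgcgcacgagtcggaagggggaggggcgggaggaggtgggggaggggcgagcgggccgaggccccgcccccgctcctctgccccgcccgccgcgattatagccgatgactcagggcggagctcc
HSPA13: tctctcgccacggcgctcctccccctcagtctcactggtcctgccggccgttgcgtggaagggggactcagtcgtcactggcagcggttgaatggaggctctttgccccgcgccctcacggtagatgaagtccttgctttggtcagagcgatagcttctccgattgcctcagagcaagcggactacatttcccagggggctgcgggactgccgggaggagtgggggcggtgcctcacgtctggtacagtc
HSP90AA1: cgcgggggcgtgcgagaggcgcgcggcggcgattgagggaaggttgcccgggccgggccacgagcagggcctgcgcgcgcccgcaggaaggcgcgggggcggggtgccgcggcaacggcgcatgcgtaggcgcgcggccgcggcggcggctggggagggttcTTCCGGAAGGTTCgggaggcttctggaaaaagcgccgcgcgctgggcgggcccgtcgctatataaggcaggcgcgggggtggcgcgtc
HSP90AB1: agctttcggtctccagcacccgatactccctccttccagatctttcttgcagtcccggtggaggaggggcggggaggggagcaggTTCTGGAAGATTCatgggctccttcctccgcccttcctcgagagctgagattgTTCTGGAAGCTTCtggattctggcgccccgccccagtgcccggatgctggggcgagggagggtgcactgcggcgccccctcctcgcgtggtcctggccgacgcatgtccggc

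The search took GAANNTTCNNGAA or TTCNNGAANNTTC, which are each other's reverse complement, so both strands were covered, over the 250 bases before and 50 after the start. Promoters were found for 32 of the 40 members, and those of HSPA14, FKBP4, PPP5C, STUB1, ST13, CRYAB, CCT6A and HSF1 were not. The motif was in 6 of the 46 promoters of these members, 1 each of HSP90AA1, HSP90AB1, HSPA8, HSPD1, DNAJA1 and DNAJB6, and in 0.49% of all 35116 promoters in the table. HSPA8 held it at bases -230 to -218 and -55 to -43 before the start. HSP90AB1 also held 2 copies, at -165 to -153 and -112 to -100, and HSP90AA1 held 1 at -88 to -76. The motif letters were thus present both in a gene called with E2 (HSPA8) and in genes not called, and were not in these windows of HSPH1, HSPE1, BAG3 and HSPA13. For HSP90AA1 and HSP90AB1, which have more than 1 start in the table, the start with the motif is shown. The palindromic estrogen response element GGTCANNNTGACC was in no member's promoter and in 0.057% of all promoters. A match, or its lack, describes the letters in this window and not binding.

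Neither HSP90 gene and none of the receptor cochaperones was called with E2. HSP90AA1 had 3359 and 3657 CPM in A4 and 2594 and 2851 CPM in B212, and the log2 ratios were 0.12 and 0.14. With the block its fold change was 0.13 ± 0.076 and was not called (edgeR adjusted p = 0.302). HSP90AB1 had 3921 and 3860 CPM in A4 and 2843 and 2807 CPM in B212, with a fold change of -0.021 ± 0.076 (edgeR adjusted p = 0.898). Both HSP90 genes thus separated by tag and overlapped by treatment. HSP90AB1 stood at 1.53 (DMSO) and 1.39 (E2) times the level of HSP90AA1 per kilobase in A4 and at 1.44 and 1.29 times in B212.

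FKBP4 and FKBP5 are immunophilins that compete for the same place on receptor-bound HSP90, and FKBP5 is a textbook target of the glucocorticoid and progesterone receptors. FKBP5 had 92.7 and 80.4 CPM in A4 and 94.8 and 86.2 CPM in B212, so both E2 libraries lay below both DMSO libraries. Its log2 fold change with the block was -0.17 ± 0.070 and was not called (edgeR adjusted p = 0.126). FKBP4 had 506 and 536 CPM in A4 and 425 and 443 CPM in B212, a fold change of 0.070 ± 0.071 (edgeR adjusted p = 0.578). Per kilobase FKBP4 was 10.8 (DMSO) and 13.2 (E2) times as abundant as FKBP5 in A4 and 8.86 and 10.2 times in B212. The ratio was higher with E2 in each tag, with no test of the ratio made.

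Of the other 9 cochaperones, none was called, and their log2 fold changes with the block ran from -0.18 (UNC45A, a myosin and HSP90 cochaperone) to 0.19 (PPID, the cyclophilin CyP40). PPID had the smallest adjusted p of the 11, 0.0893 by edgeR, with 133 and 155 CPM in A4 and 106 and 118 CPM in B212, but with the length and GC trend removed its value was 0.031 (edgeR adjusted p = 0.802) and that of FKBP5 had the smallest adjusted p (-0.15, edgeR adjusted p = 0.123). PTGES3 (p23), which stabilises the closed HSP90, had 0.15 ± 0.075 (0.0050 with the trend removed), STIP1 0.11 ± 0.071 (0.15 with the trend removed) and AHSA1, which speeds the HSP90 ATPase, 0.079 ± 0.069 (-0.019 with the trend removed). CDC37, the kinase-specific cochaperone, had -0.057 ± 0.069, the phosphatase PPP5C -0.072 ± 0.072, ST13 (HIP) 0.054 ± 0.070 and STUB1 0.031 ± 0.088. STUB1 was read at 16.2 to 18.4 CPM. Of its exonic bases, 42.4% lie opposite exons of JMJD8 in GENCODE 29, and since the strand setting of the counting is not given in the sources used here, its level is uncertain, as are those of PPID (19.5% opposite ETFDH) and UNC45A (17.8% opposite HDDC3).

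None of the 8 TRiC subunits passed the test with E2, though their values shared a sign. All 8 had an E2 log2 ratio above 0 in each tag, from 0.030 (CCT6A) to 0.28 (CCT4) in A4 and from 0.076 (CCT6A) to 0.25 (CCT2) in B212, though with the length and GC trend removed CCT6A had a log2 fold change of -0.013. With the block their median log2 fold change was 0.16 and their range 0.053 to 0.20, and the smallest adjusted p was 0.0948 (CCT2, edgeR). With the trend removed their median was 0.082 and their range -0.013 to 0.16. CCT2 had 639 and 705 CPM in A4 and 516 and 613 CPM in B212. TCP1, the subunit that names the complex, had 538 and 611 CPM in A4 and 391 and 420 CPM in B212. The share of all counts taken by the 8 genes was 0.462% and 0.510% in A4 and 0.386% and 0.420% in B212. In all, 30 of the 40 members (75.0%) had an E2 ratio above 0 in both tags against 33.3% of all genes tested, 7 had a ratio below 0 in both against 36.8%, and 3 had opposite signs against 29.8%. The median of the 40 was 0.12 with the block and 0.061 after the correction for length and GC, while the median over all genes was -0.0081 and -0.012.

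**Figure D3:**
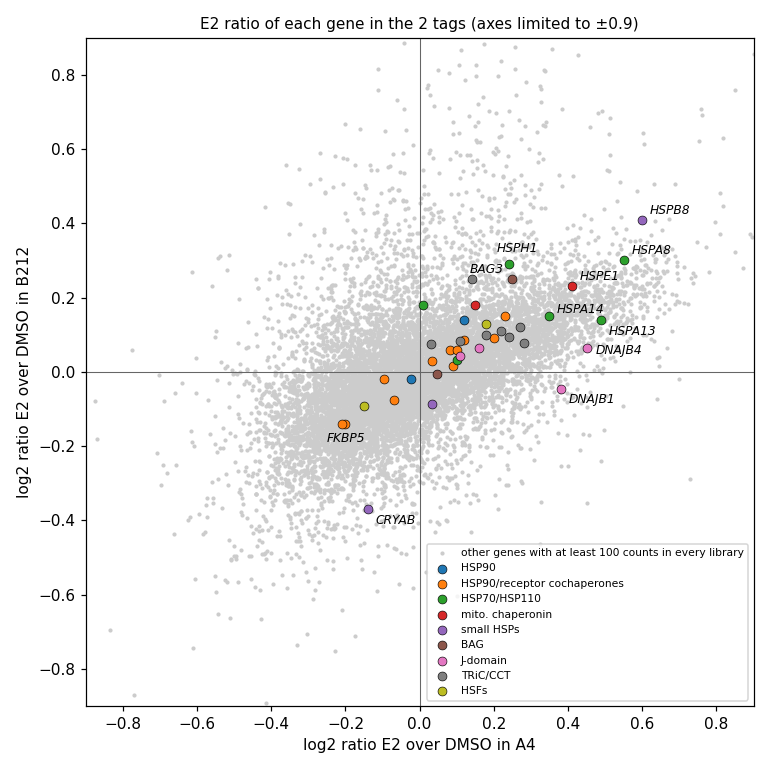
E2 log2 ratio of each chaperone gene in A4 (horizontal) and in B212 (vertical), coloured by role, over grey points for other genes that had at least 100 counts in each of the libraries; 49 of these lie outside the axes, which end at 0.9. HSPA8 (0.55 and 0.30) and HSPE1 (0.41 and 0.23) lie to the upper right, DNAJB1 and DNAJB4 lie far to the right but close to 0 in B212, and FKBP5 lies to the lower left.

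Among the J-domain proteins, which deliver clients to HSP70 and trigger its ATPase, none was called with E2, and the E2 ratio of DNAJB1 and DNAJB4 was larger in A4 than in B212. DNAJB1 (HSP40) had 280 and 366 CPM in A4 and 166 and 160 CPM in B212, log2 ratios of 0.38 and -0.046. DNAJB4 had 41.4 and 56.6 CPM in A4 and 43.9 and 45.9 CPM in B212, ratios of 0.45 and 0.065. With 1 library per combination of tag and treatment a difference in response could not be tested. The adjusted p-values with the block were above the threshold for both (edgeR adjusted p = 0.216 and 0.0669), and DNAJA1 had 0.077 ± 0.071 (-0.041 with the trend removed) and DNAJB6 0.11 ± 0.070.

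The small heat shock proteins, which hold unfolding proteins without using ATP, were not called with E2. HSPB1 (HSP27) had 83.6 and 85.5 CPM in A4 and 108 and 102 CPM in B212, ratios of 0.033 and -0.087. HSPB8, a partner of BAG3, had 34 (DMSO) and 59 (E2) counts in A4 and 24 and 28 counts in B212. Its log2 fold change of 0.55 ± 0.32 had the widest error of the 40 genes and was not called (edgeR adjusted p = 0.297). CRYAB, alpha B-crystallin, had 66 and 67 counts in A4 and 954 and 634 counts in B212, with a fold change of -0.31 ± 0.14 (edgeR adjusted p = 0.169). BAG1, a nucleotide exchange factor for HSP70, had a fold change of 0.021 ± 0.069.

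HSF1 had 65.5 and 59.3 CPM in A4 and 58.7 and 55.1 CPM in B212, a log2 fold change of -0.12 ± 0.073 that was not called (edgeR adjusted p = 0.325). HSF2, which pairs with HSF1 at some promoters, had 30.1 and 34.1 CPM in A4 and 32.1 and 35.2 CPM in B212. Both E2 libraries of HSF2 lay above both DMSO libraries, but its 0.16 ± 0.079 was not called (edgeR adjusted p = 0.228). Besides HSF2, both E2 libraries lay above both DMSO libraries for HSPA13 and DNAJB4, 7.50% of the members against 13.2% of all genes, and below them for FKBP5 alone, 2.50% against 11.8%.

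Other genes of the chaperone network were taken from 7 lists written from general knowledge, with earlier results of these data known. The lists hold 87 genes, of which 77 were tested. With the block 17 of the 77 were called higher with E2 and 2 lower, against 6.13% and 3.44% of all genes, with a median log2 fold change of 0.087. With the length and GC trend removed 5 of the 77 were called higher and 0 lower. In that fit 2.96% of all genes were called higher, and 260 genes in all were called lower. Of 16 prefoldin, phosducin-like and tubulin folding genes tested, 6 rose and 1 fell, and 3 rose with the length and GC trend removed. PFDN4, a subunit of the prefoldin that hands actin and tubulin to TRiC, had 15.8 and 30.9 CPM in A4 and 18.5 and 25.7 CPM in B212. Its log2 fold change was 0.72 ± 0.10 (edgeR adjusted p = 4.11e-04) and 0.44 with the trend removed. PFDN5 rose by 0.44 ± 0.073 (edgeR adjusted p = 0.00145), from 145 to 211 CPM in A4 and from 161 to 203 CPM in B212. TBCD, a tubulin cofactor, and DNAJB2 were called lower, with -0.25 ± 0.070 and -0.28 ± 0.086 (edgeR adjusted p = 0.0303 and 0.0418), and neither was called with the trend removed (0.303 and 0.148). Of the other lists, 1 of 10 HSP70 relatives and exchange factors, 3 of 16 J-domain genes, 2 of 21 HSP90 cochaperones and 2 of 8 mitochondrial chaperones and proteases were called higher, and 0 in each of these 4 lists with the trend removed. Of 3 genes tested from a list of other HSPB symbols and CRYAA, 1 was called higher (HSPB11), and it was not called with the trend removed. Of 3 other heat shock factors and their binding proteins 2 were called higher, HSF4 (0.75 ± 0.19) and HSBP1 (0.34 ± 0.077), with edgeR adjusted p-values of 0.0193 and 0.0105. Both were called with the trend removed (edgeR adjusted p = 0.0404 and 0.00716). HSF4 was read weakly, with 43 (DMSO) and 83 (E2) counts in A4 and 168 and 240 counts in B212, and DESeq2 gave it no adjusted p.

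Several genes of the wider lists, among them HSP70 genes, were read weakly or not at all. HSPA1A, the classic heat-inducible HSP70, was at 0 in every library, and so was PFDN6, while BAG6 had at most 1 count and AARSD1 at most 2. HSPA1B, a near-identical copy of HSPA1A, had 51 to 206 counts, HSPA6 had 6 to 44 and HSPA1L had 3 to 8. Reads of the HSPA1A and HSPA1B pair cannot be told apart with confidence. Since some of these genes are used by every cell, a count of 0 is reported as listed and not as a lack of RNA.

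Of 7 receptors that are HSP90 clients, 1 was called higher with E2 and 1 lower with the block, against 6.13% and 3.44% of all genes. With 7 genes, 1 call in each direction cannot be set apart from these shares. PGR, the progesterone receptor, had 51.6 and 72.1 CPM in A4 and 5.62 and 15.6 CPM in B212, a fold change of 0.90 ± 0.14 (edgeR adjusted p = 8.55e-04), which DESeq2 did not call (adjusted p = 0.201). ESR1 was called lower by edgeR with -0.25 ± 0.070 (adjusted p = 0.0330) and by limma-voom (adjusted p = 0.0459). It was not called with the trend removed (-0.18, edgeR adjusted p = 0.101), with DESeq2 (adjusted p = 0.0802) or with DESeq2 size factors in edgeR (adjusted p = 0.0565).

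Many more of these genes were called between the tags than between the treatments, and mostly in one direction. With treatment as a covariate, 31 of the 40 genes were lower in B212 than in A4, 4 were higher and 5 were not called, where 51.0% of all genes were called. The members called lower were 77.5% of the 40 against 25.8% of all genes tested, and those called higher were 10.0% against 25.2%. Most members were read at high counts, where calls are made more easily, and these shares were not matched for level. Both B212 libraries lay below both A4 libraries for 32 members (80.0%) against 32.8% of all genes, and above them for 4 (10.0%) against 34.7%. The median log2 difference of the 40 was -0.32, and that of all genes was 0.0042. Both HSP90 genes, all 6 of the HSP70 and HSP110 family, both mitochondrial chaperonin genes and all 8 TRiC subunits (CCT6A not with library size as the only scaling) were lower in B212, as were 8 of 11 cochaperones and 3 of 4 J-domain genes. This compares these cells only, since each tag is 2 libraries that differ in treatment.

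**Figure D4:**
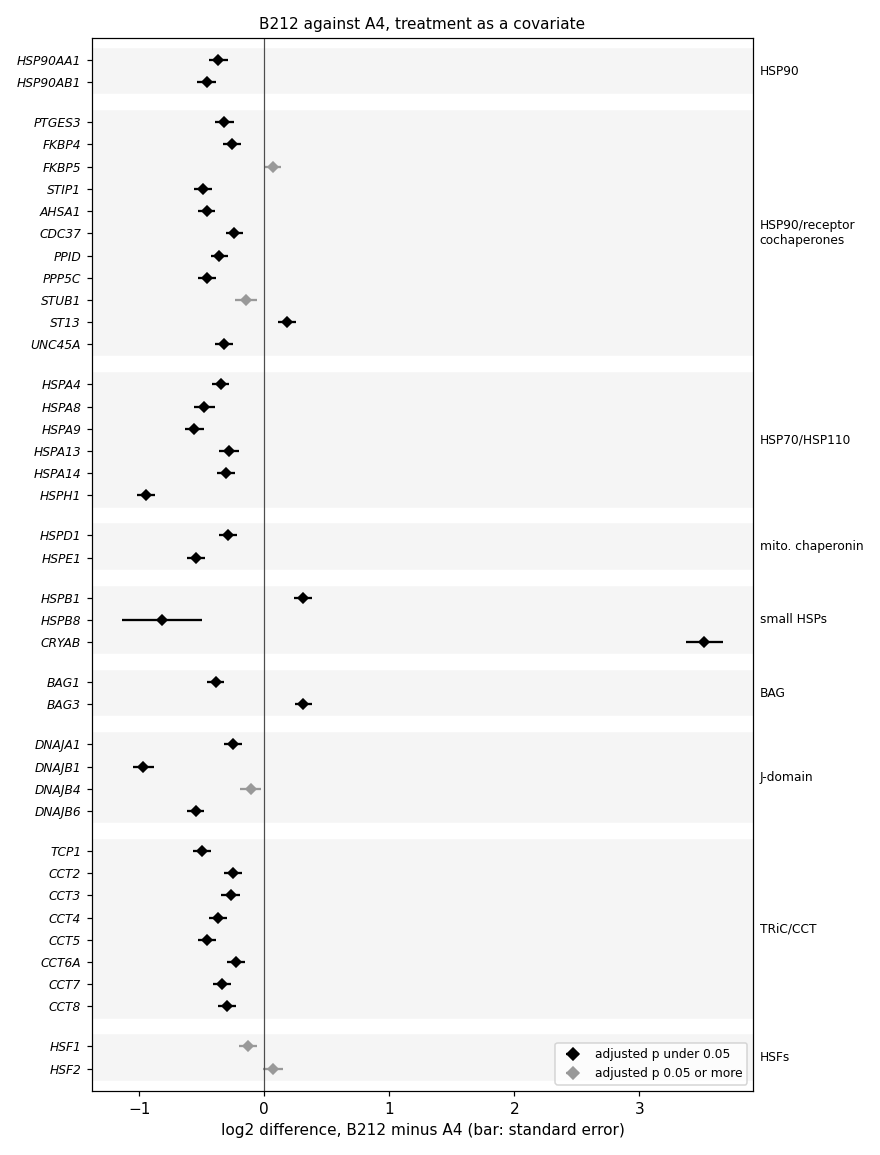
Log2 difference between B212 and A4 for each chaperone gene, with treatment as a covariate (bars are the standard error, black where called). The TRiC subunits lie between -0.50 and -0.23, HSPH1 (-0.95) and DNAJB1 (-0.97) lie farthest to the left, and CRYAB (3.52) stands alone to the right.

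The largest difference among the 40 genes was in CRYAB, which was at 0.901 and 0.817 CPM in the A4 libraries and 11.2 and 8.65 CPM in the B212 libraries. It was higher in B212 by 3.52 ± 0.15 on the log2 scale (edgeR adjusted p = 1.09e-13) and was the only member called with an absolute difference of at least 1, a size that 11.0% of all genes reached. HSPB2, the neighbour that shares its upstream region with CRYAB, had 0 and 2 counts in A4 and 10 and 10 in B212. Exons of HSPB2 and of its readthrough lie opposite 20.6% of the CRYAB exonic bases, so reads of the pair may not be fully told apart. HSPB1 was higher in B212 by 0.31 ± 0.070 and HSPB8, at 24 to 59 counts, lower with -0.82 ± 0.32 (edgeR adjusted p = 8.95e-04 and 0.0384). The HSPB8 call was lost with library size as the only scaling (edgeR adjusted p = 0.0554) and with DESeq2 (adjusted p = 0.317).

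DNAJB1 and HSPH1, both known as heat shock genes, had the largest log2 differences toward A4 among the 40 genes. DNAJB1 fell by 0.97 ± 0.085 on the log2 scale (edgeR adjusted p = 1.03e-08) and HSPH1 fell by 0.95 ± 0.072 (edgeR adjusted p = 1.09e-09), both in B212 relative to A4. All A4 libraries of both genes lay above all B212 libraries. After HSPB8, HSPE1 (-0.55 ± 0.072), DNAJB6 (-0.55 ± 0.070) and HSPA9 (-0.56 ± 0.074) came next. HSPA1B from the wider lists, at 2.69 and 2.51 CPM in A4 and 0.867 and 0.696 CPM in B212, had -1.73 ± 0.20 (edgeR adjusted p = 4.05e-07). Its near-identical copy HSPA1A was listed at 0 in every library, so the level of HSPA1B is uncertain. BAG3, also a heat shock gene by background knowledge, was in contrast higher in B212, by 0.31 ± 0.068 (edgeR adjusted p = 8.60e-04).

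HSP90AB1 was lower in B212 with -0.46 ± 0.076 and HSP90AA1 with -0.37 ± 0.076 (edgeR adjusted p = 4.52e-05 and 4.76e-04). Among the cochaperones STIP1 (-0.49 ± 0.071), AHSA1 (-0.46 ± 0.069) and PPP5C (-0.46 ± 0.072) differed most. FKBP4 was lower in B212 with -0.26 ± 0.071, whereas FKBP5, at 80.4 to 94.8 CPM, had 0.066 ± 0.070 and was not called (edgeR adjusted p = 0.00417 and 0.451). ST13 was the only cochaperone called higher, with 0.18 ± 0.070 (edgeR adjusted p = 0.0367), and that call was lost with DESeq2 size factors in edgeR (adjusted p = 0.0528), with no filter (edgeR adjusted p = 0.108), with DESeq2 (adjusted p = 0.108) and with the trend removed (0.094, edgeR adjusted p = 0.172). HSF1 (-0.13 ± 0.073), HSF2 (0.069 ± 0.079), DNAJB4 (-0.11 ± 0.087) and STUB1 (-0.15 ± 0.088) were not called. With the trend removed, HSF1 (-0.15), DNAJB4 (-0.31) and STUB1 (-0.19) were called lower in B212, with edgeR adjusted p-values of 0.0397, 0.00101 and 0.0366.

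Of the 77 genes of the wider chaperone lists, 37 were lower in B212 and 9 higher, where 25.8% of all genes were lower and 25.2% higher, and their median was -0.18. TOMM34, a cochaperone that bridges HSP70 and HSP90, was lower with -0.63 ± 0.073 (edgeR adjusted p = 5.52e-07). HSF4, at only 43 to 240 counts, and DNAJC27 were higher, with 1.71 ± 0.20 and 0.65 ± 0.11 (edgeR adjusted p = 4.49e-07 and 3.64e-05). Among the receptors PGR was lower with -2.67 ± 0.14 and NR3C2, the mineralocorticoid receptor, higher with 1.14 ± 0.10 (edgeR adjusted p = 4.52e-12 and 1.09e-08), while ESR1 was not called.

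With library size as the only scaling, 29 members were lower in B212 and 4 higher, against 20.4% and 30.5% of all genes (3176 and 4761 genes), and CCT6A was no longer called (edgeR adjusted p = 0.0742). Without the treatment term 17 of the 40 members were called, beside 4456 of the 15599 genes tested. Fits that also leave out 1 library keep only 1 in a tag. They cannot show whether members were called more often than all genes. With 1 library left out as well, fewer than the 35 members were called each time, and fewer genes in all. In the main fit the log2 difference was below 0 for 34 members and above 0 for 6. For 33 members it was below 0 in all 13 tag fits, those with 1 library left out among them. Of the 8 epithelial markers, 6 were higher in B212, with summed levels of 2155 to 2362 CPM in A4 and 2833 to 3091 CPM in B212. Of 7 stromal markers, 4 were tested, of which 3 were lower and 1 higher in B212, and the list summed to 92.0 to 130 CPM in A4 and 39.2 to 47.4 CPM in B212, mostly COL1A1, with DCN at no more than 1 count in a library. The part of these differences in the chaperone result was not tested.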

How the data were processed

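The deposited table holds raw read counts per gene symbol, and per the submitters' processing notes the authors used HISAT2, SAMtools, featureCounts, DESeq2 and the hg19 build, with no versions, roles or strand setting given in the sources used here. Per the labels' protocols, the libraries were made from 500 ng of RNA with a stranded poly(A) kit. Of the table's columns, 4 were matched to the samples by treatment and 4 others, which match no sample, were not used. Whether the 2 clones stand for separate cultures on separate days is not stated, so p-values measure only the spread between these libraries.

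Counts were fitted on all genes with edgeR 4.0.16 (R 4.3.3): TMM scaling, filterByExpr with a minimum count of 10, the quasi-likelihood test and Benjamini-Hochberg adjustment over the 15599 genes tested. The treatment fit had no block, and its alternative took the tag as a replicate block. The pairing comes from the tags in the column names, since both clones received both treatments: deviations from the group means correlated with r = 0.871 between libraries of the same tag, a single independent value with 2 groups of 2. Tags were compared with treatment as a covariate. Each standard error, printed after ±, was derived from the edgeR test, as the absolute log2 fold change over the square root of the F statistic. Within-tag log2 ratios used a prior count of 2. Alternatives were other scalings, filters and tools (DESeq2 1.42.0, limma-voom 3.58.1), each library left out, and a correction of each library for a smooth dependence on GC content and transcript length (mgcv 1.9.3, GENCODE 29, matched for 93.5% of genes tested). Each script was tested on simulated data.

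Members and gene lists were chosen with earlier results of these data known. Described in full were members called in the treatment comparison or past a log2 tag difference of 1, both HSP90, FKBP and heat shock factor genes, ESR1, and up to 3 called genes of the other lists per direction and comparison with the smallest p. Other members were named after their values were seen. Promoters were taken from RefSeq (GRCh38.p14).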

Additional observations from a re-analysis of the deposited data

Results flagged for a closer look

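In 3 genes the E2 log2 ratio was above 0 in A4 and below 0 in B212. DNAJB1 had 0.38 in A4 and -0.046 in B212, HSPB1 had 0.033 and -0.087, and BAG1 had 0.047 and -0.0055. Each ratio rests on 1 library per treatment, so the difference between the tags was not tested.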

How the results depend on the processing

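With no block, 0 members were called with E2 under every scaling, filter and tool tried and with each library left out. With the replicate block 6 were called, and also 6 with library size only, with limma-voom and with at least 10 counts in every library, 4 with the length and GC trend removed, 3 with DESeq2 (no adjusted p for 7561 genes in all) and 2 with DESeq2 size factors in edgeR. With the replicate block and the trend removed, AHSA1 (-0.019), DNAJA1 (-0.041) and CCT6A (-0.013) turned sign. Of the 35 tag calls 17 remained in number without the treatment term and 5 to 30 with 1 library left out, while the other alternatives gave 32 to 37. Removing the trend turned the tag difference of FKBP5 to -0.029 and of HSF2 to -0.021. Fits with 1 library left out have 1 library in an arm, assumed to vary like the others, and no block. Such a fit holds 1 treatment in a single tag, so its E2 change and its tag difference each take in part of the other. The cause of the changes across settings was not tested.

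With 1 library left out and no block, the E2 log2 change of 28 members turned sign. In these fits that change also holds part of the tag difference, since 1 treatment has a single tag. The ranges were -0.080 to 0.33 for HSP90AA1, -0.29 to 0.23 for HSP90AB1, -0.066 to 0.33 for PTGES3, -0.090 to 0.20 for FKBP4, -0.18 to 0.36 for STIP1, -0.19 to 0.32 for AHSA1, -0.19 to 0.084 for CDC37, -0.036 to 0.38 for PPID, -0.34 to 0.17 for PPP5C, -0.066 to 0.11 for STUB1, -0.054 to 0.16 for ST13 and -0.35 to 0.0031 for UNC45A. They were -0.15 to 0.25 for HSPA4, -0.20 to 0.44 for HSPA9, -0.30 to 0.82 for HSPH1, -0.034 to 0.62 for HSPE1, -0.21 to 0.16 for HSPB1, -2.89 to 2.38 for CRYAB, -0.21 to 0.22 for BAG1, -0.090 to 0.22 for DNAJA1, -0.49 to 0.71 for DNAJB1 and -0.23 to 0.40 for DNAJB6. They were -0.16 to 0.40 for TCP1, -0.080 to 0.40 for CCT4, -0.13 to 0.40 for CCT5, -0.073 to 0.18 for CCT6A, -0.11 to 0.27 for CCT7 and -0.042 to 0.35 for CCT8, and for PGR, not a member, -0.89 to 2.96. The tag difference ran from -0.043 to 0.17 for FKBP5, from -0.33 to 0.11 for DNAJB4, from -0.020 to 0.15 for HSF2 and from -0.28 to 0.054 for ESR1. HSPB8, at 24 to 59 counts, had the widest standard error of the members (0.32) between the tags and, with the replicate block, with E2.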
